A study of Mus musculus with 48 samples.

Results

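Kidneys of nephritic female NZB/W F1 mice were compared with kidneys of young female NZB/W F1 mice at a single time of day, Zeitgeber time (ZT) 20, in the dark phase of a cycle with lights off at ZT12. The comparison used 3 nephritic and 4 young arrays, which were chosen by the source names in the labels and make up 7 of the 48 arrays of the series. A gene was tested where a probe was detected on at least 3 of the 7 arrays, which gave 9602 genes. Nephritic mice had reached proteinuria above 300 mg/dl 2 to 3 weeks before harvest, their blood urea nitrogen had not passed 25 mg/dl, and their age by the study's methods was 30 to 45 weeks. Young mice were 12 weeks old. All kidneys were perfused with PBS, whole-kidney RNA was hybridised to Illumina MouseRef-8 v2.0 BeadChips, and no treatment was labelled in either group. Because nephritic mice were also the older mice, age and disease cannot be told apart here.

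NZB/W F1 mice develop an autoimmune disease like human lupus, in which antibodies and immune complexes lodge in the glomeruli, complement and Fc receptors are engaged, and leukocytes enter the kidney. The tubules, which make up most of the kidney's mass, reabsorb solutes and carry out much of its metabolism, and they alter their gene expression when injured. Kidney cells also hold a circadian clock, in which the Arntl (Bmal1) and Clock proteins switch on the Per, Cry and Nr1d genes, whose products feed back on them.

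The values are log2 signals after background correction and quantile normalization, a difference is nephritic minus young on that scale, and adjusted p-values are from limma with Benjamini-Hochberg adjustment over the 9602 genes, with a threshold of 0.05. The nephritic arrays had 13250, 13554 and 13337 detected probes, and the young arrays had 13442 to 13800. The replicates of the nephritic group were less alike, with a median SD per gene of 0.223 against 0.133 in the young group. The genes at least 2-fold above and below the young mean numbered 107 and 40 on nephritic array 1, 416 and 219 on array 2, and 394 and 470 on array 3. Tubular genes stood high on every array: Umod, which encodes uromodulin of the thick ascending limb, lay between 13.76 and 13.91 on nephritic arrays and between 13.62 and 13.80 on young arrays. Nephritic array 1 correlated more closely with the young arrays (mean r = 0.9833 over genes) than with the other nephritic arrays (0.9703), while arrays 2 and 3 were closer to their own group (0.9739 and 0.9648, against 0.9631 and 0.9522). Nephritic array 3 stood apart in 2 ways. Its signal for Pabpc1, whose protein binds the poly(A) tails of mRNAs, was 6.69, against 8.20 and 8.87 on the other nephritic arrays and 8.52 to 8.93 on the young arrays. It also had high values of genes known from hepatocytes, described with the other values of that array further on. Young array 1 held the highest mean levels of the adipose markers (1.18 above the mean of the 7 arrays for 7 detected genes of 11 listed) and of the adrenal markers (1.10 for 3 of 12).

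In nephritic kidneys 743 genes were higher (7.74% of those tested) and 415 were lower (4.32%) than in young kidneys. At an unadjusted p under 0.05, 3019 genes (31.4%) differed. Of the called genes, 210 higher genes (2.19%) and 56 lower genes (0.583%) differed at least 2-fold. The median difference over all tested genes was 0.03. The 3 nephritic arrays lay above all 4 young arrays for 1682 genes (17.5%) and below them for 1134 genes (11.8%). Without nephritic array 3, 689 genes (7.18%) were higher and 474 (4.94%) were lower. All 1158 genes called with 7 arrays kept their sign without that array, in a fit that shares all the other arrays. Of the 743 higher calls 555 (74.7%) were called again, as were 309 (74.5%) of the 415 lower calls. Without nephritic array 1 the counts were 1411 higher and 816 lower, without array 2 they were 286 and 123, and without any one young array they were 244 to 310 and 82 to 131. Of 135 genes named by rule that passed, the 64 with an adjusted p up to 0.0139 (limma) also passed whichever array was left out, and the 71 with an adjusted p of 0.0142 or more missed the threshold in at least 1 of the 7 such fits. Of these, 21 did not pass without nephritic array 3, and all 21 were also lost without at least 1 other array.

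**Figure D1:**
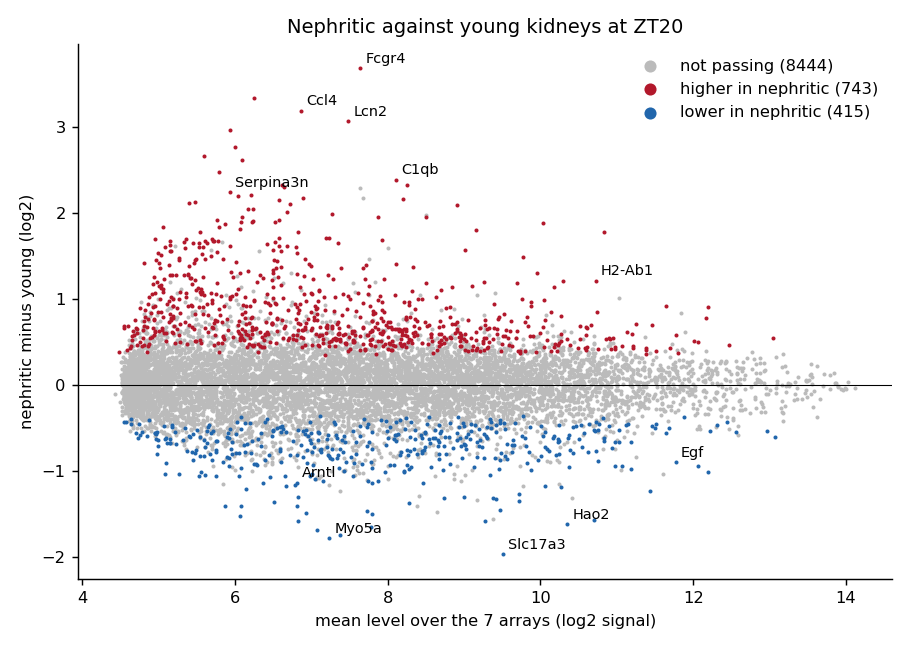
Difference between nephritic and young kidneys at ZT20 (log2, vertical axis) against the mean log2 signal over the 7 arrays (horizontal axis), with 1 point per tested gene. The 743 genes called higher reach a difference of 3.68 at Fcgr4, and the 415 called lower reach -1.97 at Slc17a3.

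The largest increase was that of Fcgr4, an activating receptor for IgG on macrophages and neutrophils. Its signal was 8.84, 10.22 and 10.15 on the nephritic arrays and 5.78, 6.12, 6.21 and 6.10 on the young arrays. The groups did not overlap, and the difference was 3.68 ± 0.31 (SE), a 12.9-fold increase (limma, adjusted p = 0.0045). Fpr2, a receptor for formylated peptides on phagocytes, followed with 6.97, 8.39 and 9.10 against 4.48, 4.60, 4.65 and 5.53 (difference 3.34 ± 0.47, limma adjusted p = 0.0074), though only 2 of the young arrays detected it. Lcn2, the secreted iron-carrier-binding protein that marks injured tubules, had 8.09, 10.69 and 8.93 on nephritic arrays and 6.71, 5.99, 5.86 and 6.09 on young arrays (3.07 ± 0.53, limma adjusted p = 0.012). Nephritic array 1 was the lowest nephritic array for each of these 3 genes. The others among the 15 largest increases were Ccl4, Clec4a1, Ms4a6d, Timp1, Ms4a7, Cd8b1, C1qb, C1qc, Pld4, Ccl9, Serpina3n and Il1b, with differences of 3.19 to 2.21. Each of the 15 stayed past the threshold when any single array was left out.

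Most detected markers of myeloid, T and NK, and B and plasma cells were higher. The counts of these lists stand beside 7.74% higher and 4.32% lower over all tested genes. Detection on the 3 nephritic arrays alone was enough for a gene to be tested, which tilts the counts and medians of such lists upward. Of 46 genes detected on all 3 nephritic and none of the 4 young arrays, 38 passed. Of 28 myeloid markers listed, 16 were detected, and 11 of these were higher, none was lower and 5 did not pass (median difference 1.28, against 0.03 for all tested genes). Adgre1, which encodes a surface antigen of macrophages, was 6.37, 7.0 and 6.59 in nephritic kidneys and 4.93, 5.16, 5.10 and 5.19 in young kidneys, with a difference of 1.55 ± 0.16 (limma adjusted p = 0.0052). Laptm5, a lysosomal protein of blood cells, differed by 1.89, Cd52, a leukocyte surface glycoprotein, by 2.09, and Aif1, an actin-binding protein of macrophages, by 1.60. Trem2 and Gpnmb, which are known from lipid-laden and tissue-remodelling macrophages, were also higher. Trem2 differed by 1.28. Gpnmb was at least 2.06-fold higher, since no young array detected it, and did not pass without nephritic array 3 (limma adjusted p = 0.088). In whole kidneys, more cells of a type and more RNA per cell cannot be told apart. The mean level of the 16 myeloid genes was 0.0649, 1.14 and 1.10 on the nephritic arrays and -0.653 to -0.436 on the young arrays, so array 1 lay between the other nephritic arrays and the young ones.

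T and NK cell markers were higher for 10 of the 13 detected genes (26 listed), and none was lower (median 1.37). The chains of the T cell receptor complex Cd3d, Cd3e and Cd3g differed by 1.92, 1.26 and 1.68. Cd8b1, a chain of the co-receptor of cytotoxic T cells, was 6.37, 7.41 and 7.85 on nephritic arrays against 4.62, 4.74, 4.43 and 5.13 on young arrays (2.48 ± 0.32, limma adjusted p = 0.0069). Icos, a co-stimulatory receptor, differed by 0.80 and Nkg7, a protein of cytotoxic granules, by 1.46. Of the B and plasma cell markers, 16 were on the array (21 listed) and 7 were detected. Of these 7, 5 were higher and none was lower (median 1.60), and Cd79a and Pou2af1 were tested through the nephritic arrays alone. Cd79a and Cd79b carry the signal of the B cell receptor. Cd79a was 5.81, 6.26 and 5.94 in nephritic kidneys and was not well above background on any young array, which makes it at least 2.61-fold higher (limma adjusted p = 0.005). Mzb1, a chaperone of antibody-secreting cells, was 6.74, 7.39 and 6.69 against 4.94, 5.41, 4.86 and 5.02 (1.88 ± 0.20, limma adjusted p = 0.0052). Pou2af1, a co-activator of B cell transcription, was at least 2.47-fold higher.

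Neutrophil markers gave another picture. Only 3 of the 12 listed were detected on at least 3 arrays, none of the 3 passed in either direction, and S100a8 and S100a9, the most abundant proteins of neutrophil cytoplasm, were among the 9 that were not. The count of higher genes in the lists of myeloid, T and NK, and B and plasma cell markers was 11, 10 and 5 with and without nephritic array 3.

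**Figure D2:**
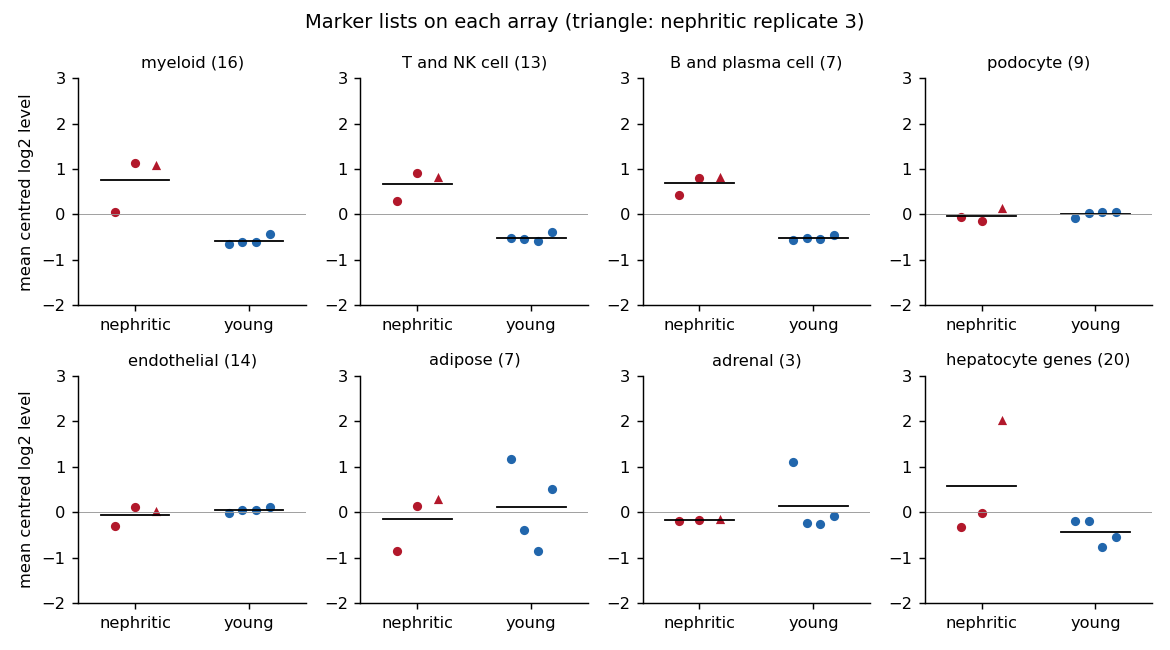
Mean level of each marker list (vertical axis, log2 signal minus each gene's mean over the 7 arrays) on 3 nephritic and 4 young arrays, with the number of detected genes in brackets, group means as bars and nephritic array 3 as a triangle. Myeloid, T and NK, and B and plasma cell markers separate the groups, whereas the mean levels of podocyte and endothelial markers overlap, young array 1 is highest for adipose and adrenal markers, and hepatocyte genes (a list added after the values were seen) reach 2.03 on nephritic array 3.

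Of the 6 detected genes for Fc gamma receptors and their adaptors, 4 were higher and none was lower, namely Fcgr4, Fcgr3, Fcgr1 and the adaptor Tyrobp. This count and the complement count below stand beside 7.74% higher and 4.32% lower over all tested genes. Tyrobp passed in 2 of the 7 fits that left out 1 array. Fcgr3 was 6.41, 7.98 and 8.08 on nephritic arrays against 5.67, 5.92, 5.91 and 6.23 on young arrays (1.56 ± 0.37, limma adjusted p = 0.033), and without nephritic array 3 it no longer passed (1.26, limma adjusted p = 0.056). Fcgr1, the receptor with the highest affinity for IgG, was at least 1.96-fold higher and also did not pass without that array (limma adjusted p = 0.074). Fcgr2b, the inhibitory receptor of the family, did not pass with all arrays (-0.35, limma adjusted p = 0.17, and -0.52, limma adjusted p = 0.0497, without nephritic array 3). Of 11 detected complement genes, 5 were higher and none was lower. The 3 chains of C1q, which binds antibody in immune complexes, moved alike: C1qa, C1qb and C1qc differed by 2.15, 2.39 and 2.33. C1qb was 8.73, 9.78 and 9.88 in nephritic kidneys and varied little in young kidneys, at 7.09, 7.02, 7.09 and 7.11. C4b, the next component of the classical pathway, differed by 1.95 ± 0.27. Cfi, a protease that limits complement activation, differed by 0.65 and did not pass without nephritic array 3 (0.55, limma adjusted p = 0.088).

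Chemokines were higher for 10 of 23 detected genes of the list and lower for 1 (median 0.753). The shares over all tested genes were 7.74% higher and 4.32% lower. Ccl4, which attracts monocytes and T cells, was 7.45, 9.11 and 9.50 against 5.14, 5.35, 5.46 and 6.03 (3.19 ± 0.45, limma adjusted p = 0.0074). Ccl5, a T cell attractant, was 7.01, 7.92 and 6.71 against 5.18, 5.46, 5.0 and 5.37, with a difference of 1.96. Cxcl13, which draws B cells into follicles, was 6.09, 7.19 and 6.57 in nephritic kidneys and was not well above background in any young kidney, a difference of at least 3.98-fold (limma adjusted p = 0.0052). Cxcl1, a neutrophil attractant, differed by 1.47, and Ccl7, Ccl8, Ccl9 and Ccl12, which act on monocytes, differed by 1.67, 2.13, 2.30 and 1.13. The member that fell was Cxcl12, a homeostatic chemokine made by stromal cells, at 9.80, 10.14 and 9.98 against 10.36, 10.48, 10.44 and 10.47 (difference -0.46 ± 0.11, limma adjusted p = 0.036). Without nephritic array 3 its difference was -0.47 and just missed the threshold (limma adjusted p = 0.051), as did those of the receptor Cx3cr1 (1.27, limma adjusted p = 0.062) and of Ccl12 (0.88, limma adjusted p = 0.066).

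Among cytokines, NF-kB targets and adhesion molecules, 4 of 13 detected genes were higher and none was lower, beside 7.74% and 4.32% over all tested genes. Il1b, the inflammatory cytokine interleukin 1 beta, was 6.56, 7.71 and 8.16 against 4.95, 5.54, 5.34 and 5.23 (2.21 ± 0.34, limma adjusted p = 0.0092). Icam1, an adhesion molecule for leukocytes, differed by 1.18 and Nfkbia, the inhibitor that NF-kB itself induces, by 0.58. Tnfsf13b, which encodes the B cell survival factor BAFF, was 6.65, 7.80 and 7.37 against 6.20, 5.96, 5.93 and 6.33, a difference of 1.17 ± 0.25 (limma adjusted p = 0.024). It passed in 2 of the 7 fits that left out 1 array. Tnf, Il6, Il1a and Il10 were not detected on enough arrays to be tested.

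Of 24 detected genes of the type I interferon response (33 listed), 12 were higher, none was lower and 12 did not pass (median 0.678). Among all tested genes 7.74% were higher and 4.32% lower. Irf7, the transcription factor that amplifies interferon production, had nearly the same value on each nephritic array (6.44, 6.44 and 6.45) and 4.92, 5.06, 4.85 and 4.84 on the young arrays. Its difference was 1.53 ± 0.10 (limma adjusted p = 0.0019). Usp18, a feedback inhibitor of the interferon receptor, was 7.91, 7.78 and 8.17 against 6.32, 6.85, 6.48 and 7.05 (1.28 ± 0.19). The antiviral enzymes and sensors Oas1g, Oas2, Oasl1 and Dhx58 differed by 1.32, 1.39, 1.24 and 1.09, and Ifit3, which binds viral RNA, by 1.0. Isg15, a ubiquitin-like modifier, was 6.89, 7.11 and 7.22 against 5.58, 6.34, 5.94 and 6.66. The groups did not overlap and it passed with 7 arrays (0.94 ± 0.24, limma adjusted p = 0.04) but not without nephritic array 3 (0.87, limma adjusted p = 0.067), which also held for Parp14 (limma adjusted p = 0.086). The OAS enzymes and the H2 antigens are families of similar genes, so a probe may share signal with a relative.

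Interferon acts through the interferon-stimulated response element (ISRE), and promoters are shown of those list members that were called higher and held its letters. In the 300 bases from 250 before to 50 after each gene's start (RefSeq, build GRCm38.p6), the letters GAAA, 2 bases of any kind and again GAAA were searched on both strands. Of the 24 detected members 16 had a promoter in the reference table, and 8 of these (50%) held a match. Of the 7 higher members with a promoter, 4 did (57.1%). A match was found in 3.78% of the 7795 tested genes with a promoter, in 4.9% of the 592 called higher and in 3.64% of the 330 called lower. A match is a description of the letters and not a binding site. The 4 promoters follow with matches in capitals, where a match on the opposite strand appears as its reverse complement and the capitals run together where matches overlap.
Isg15, chr4:156200769-156201068, minus strand: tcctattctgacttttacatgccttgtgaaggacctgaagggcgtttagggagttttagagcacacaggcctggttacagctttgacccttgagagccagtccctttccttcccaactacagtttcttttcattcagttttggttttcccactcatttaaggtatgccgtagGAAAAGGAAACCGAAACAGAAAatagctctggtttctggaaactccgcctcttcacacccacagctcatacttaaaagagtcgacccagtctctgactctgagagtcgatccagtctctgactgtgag
Oas1g, chr5:120887564-120887863, minus strand: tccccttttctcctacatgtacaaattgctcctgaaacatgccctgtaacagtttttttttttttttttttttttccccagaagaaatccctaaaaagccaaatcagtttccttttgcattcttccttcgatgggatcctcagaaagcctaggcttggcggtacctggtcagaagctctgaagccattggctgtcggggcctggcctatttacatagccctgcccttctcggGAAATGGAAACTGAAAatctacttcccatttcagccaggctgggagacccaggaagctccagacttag
Ifit3, chr19:34583279-34583578, plus strand: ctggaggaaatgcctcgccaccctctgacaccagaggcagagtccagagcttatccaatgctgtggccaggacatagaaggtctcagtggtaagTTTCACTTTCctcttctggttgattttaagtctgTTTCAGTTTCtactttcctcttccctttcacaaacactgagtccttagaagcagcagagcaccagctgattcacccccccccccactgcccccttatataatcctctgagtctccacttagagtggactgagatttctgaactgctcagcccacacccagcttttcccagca
Ifitm3, chr7:141010695-141010994, minus strand: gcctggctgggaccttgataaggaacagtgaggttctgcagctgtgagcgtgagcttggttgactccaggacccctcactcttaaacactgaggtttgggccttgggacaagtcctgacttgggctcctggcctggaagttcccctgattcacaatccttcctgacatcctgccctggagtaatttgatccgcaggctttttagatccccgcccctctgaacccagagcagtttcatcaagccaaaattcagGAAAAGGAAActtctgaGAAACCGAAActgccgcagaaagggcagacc
Ifitm3, a membrane protein that blocks entry of viruses, was 10.67, 11.28 and 10.99 in nephritic kidneys and 10.25, 10.41, 10.21 and 10.32 in young kidneys (0.68 ± 0.15, limma adjusted p = 0.026). The 4 genes with a printed promoter, which were taken from those called higher, differed by 0.68 to 1.32. The other members with a match, Stat2, Rsad2, Ddx58 and Bst2, were not called.

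In the interferon gamma list 5 of 17 detected genes were higher and 1 was lower (3 and 1 without nephritic array 3). This count and the MHC count below stand beside 7.74% higher and 4.32% lower over all tested genes. The 1 lower gene of the interferon gamma list is near that share. Ciita, the master regulator of MHC class II genes, was at least 2.08-fold higher (limma adjusted p = 0.025) and was tested through the nephritic arrays alone. The immunoproteasome subunits Psmb8 and Psmb10 differed by 0.62 and 0.89, of which Psmb8 did not pass without nephritic array 3 (limma adjusted p = 0.055). With each of the 7 arrays left out in turn, Ciita passed in 2 fits and Psmb10 in 3. The guanylate-binding proteins went in both directions: Gbp7 was 6.49, 6.69 and 6.47 against 5.81, 6.04, 5.82 and 5.68 (0.71 ± 0.12, limma adjusted p = 0.012), and Gbp3 was 8.89, 8.25 and 8.50 against 9.27, 9.24, 9.40 and 9.12 (-0.71 ± 0.16, limma adjusted p = 0.028). Of 16 detected MHC genes 6 were higher and none was lower (median 0.6). H2-Ab1, a chain of the class II molecule that presents peptides to helper T cells, was 10.84, 11.78 and 11.63 against 10.10, 10.35, 9.99 and 10.38 (1.22 ± 0.22, limma adjusted p = 0.015). H2-Eb1 and the peptide-loading chains H2-DMa and H2-DMb1 differed by 1.30, 1.04 and 1.06, and the class I chain H2-K1 by 0.70. Without nephritic array 3 H2-DMb1 did not pass (limma adjusted p = 0.053). H2-Eb1 passed in 2 of the 7 fits that left out 1 array. Casp1, the protease that activates interleukin 1 beta, differed by 1.34.

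Injury genes of the tubule were higher for 6 of 22 detected members and lower for 2 (median 0.47). Besides Lcn2, the higher genes were Timp1, an inhibitor of matrix proteases, Cd44, a hyaluronan receptor of injured epithelium, the keratins Krt20 and Krt7, and Cp, which encodes ceruloplasmin. Timp1 was 6.03, 8.32 and 7.02 in nephritic kidneys and not well above background in any young kidney, at least 5.65-fold higher (limma adjusted p = 0.011). Cd44 was 6.02, 6.74 and 6.74 against 5.18, 4.85, 4.74 and 4.78 (1.61 ± 0.20, limma adjusted p = 0.0063). The 2 genes that fell were Havcr1 and Cryab. Havcr1, which encodes kidney injury molecule 1, was 8.31, 8.35 and 8.21 in nephritic kidneys and 9.38, 9.07, 9.05 and 9.32 in young kidneys (-0.92 ± 0.12, limma adjusted p = 0.007, and -0.88 without nephritic array 3). Cryab, a small heat shock protein, differed by -0.80. Among matrix genes 2 of 22 were higher, the protease Mmp14 (1.09) and the basement membrane collagen Col4a1 (0.70), and Lum, a proteoglycan of fibroblasts, was lower (-0.63). These matrix counts lie near the shares over all tested genes, 7.74% higher and 4.32% lower, which also stand beside the injury and proliferation counts. Col4a1 did not pass without nephritic array 3 (limma adjusted p = 0.079). Of 15 detected proliferation genes 4 were higher, none was lower, and Cdc20, which drives exit from mitosis, was 6.22, 7.63 and 6.72 against 5.15, 5.23, 5.24 and 5.33 (1.62 ± 0.28, limma adjusted p = 0.013).

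**Figure D3:**
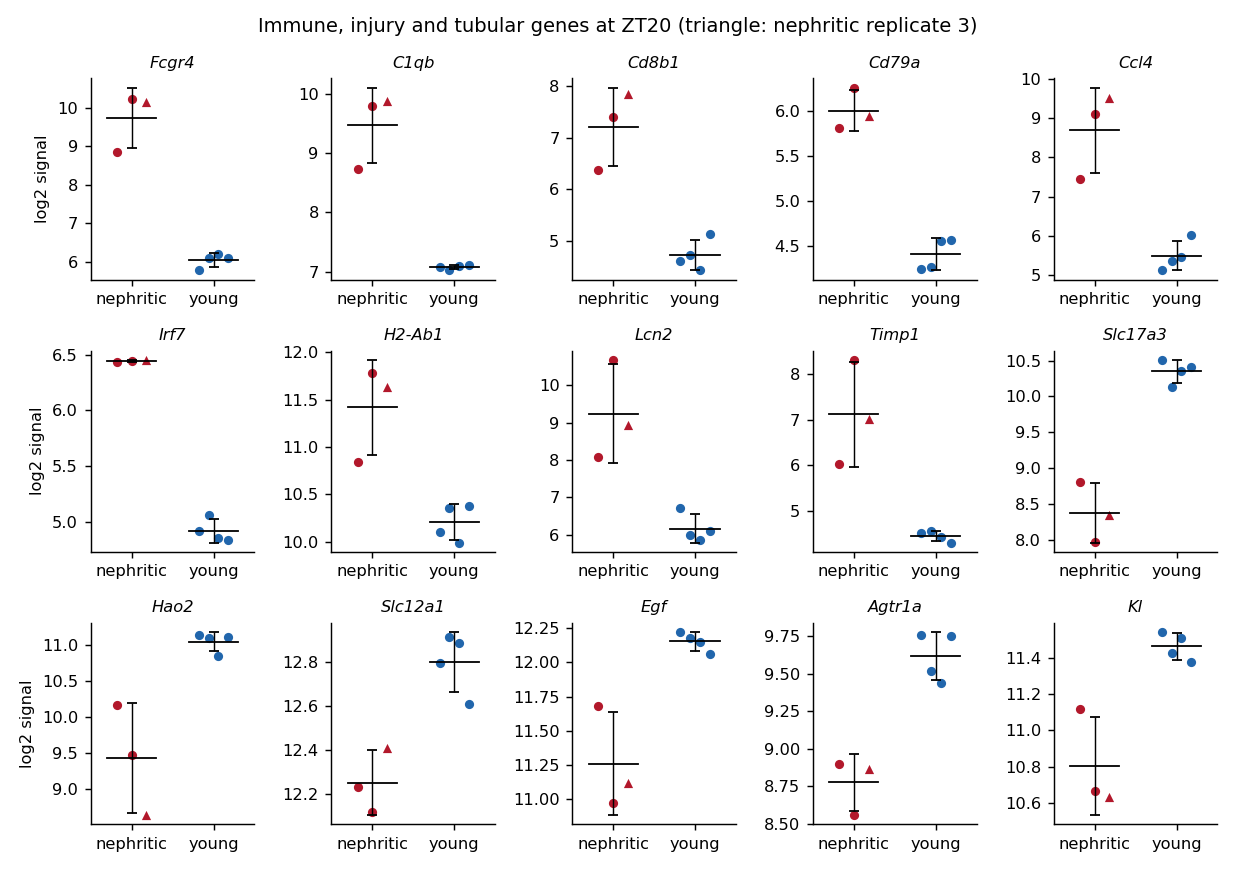
Log2 signal of 15 genes on each of 3 nephritic (left) and 4 young (right) arrays, with group means and SD as bars, nephritic array 3 as a triangle and an own vertical scale in each panel. The plotted genes were chosen from those called. In every panel the groups do not overlap, with immune and injury genes such as Fcgr4 (8.84 to 10.22 against 5.78 to 6.21) above young and tubular genes such as Slc17a3 (7.98 to 8.81 against 10.13 to 10.51) below young. Among all tested genes the nephritic arrays lay wholly above the young arrays for 17.5% and wholly below them for 11.8%.

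The largest decrease was that of Slc17a3. Slc17a3, an organic anion transporter of the proximal tubule, was 8.81, 7.98 and 8.36 in nephritic kidneys and 10.51, 10.13, 10.35 and 10.42 in young kidneys, a 3.91-fold decrease (-1.97 ± 0.19, limma adjusted p = 0.0052). Over all tested genes 4.32% were lower and 7.74% were higher. Of the 28 detected proximal tubule transporters (39 listed), 5 were lower and 1 was higher (median -0.129), so most did not pass. The others that fell were Slc22a19, an organic anion transporter (-1.56), the neutral amino acid carriers Slc6a19 (-0.90) and Slc7a8 (-0.83), and the glucose transporter Slc5a2 (-0.95, and -0.83 with limma adjusted p = 0.072 without nephritic array 3). Slc25a10, a dicarboxylate carrier of mitochondria, was the member that rose (0.43), and did not pass without that array (limma adjusted p = 0.056). Slc34a1, the main phosphate transporter of this segment, was 13.80, 13.84 and 14.002 against 13.86, 13.94, 13.91 and 13.91, overlapping between groups (difference -0.02).

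Enzymes of amino acid metabolism fell for 5 of 25 detected genes and rose for 1 (median -0.231), beside 4.32% lower and 7.74% higher over all tested genes. Cth, which makes cysteine from cystathionine, was 7.58, 6.70 and 6.52 against 8.36, 8.55, 8.48 and 8.33 (-1.50 ± 0.23, limma adjusted p = 0.0097). Kyat3, an enzyme of the kynurenine pathway outside that list, was 8.62, 8.17 and 9.11 against 10.24, 10.02, 10.07 and 10.02 (-1.45 ± 0.20, limma adjusted p = 0.0074). Aadat, which acts in the same pathway, differed by -1.32, Asl of the arginine pathway by -0.82, and Ddc, which makes dopamine in the proximal tubule, by -0.62. The enzyme that rose was Gldc of the glycine cleavage system, at 13.05, 12.50 and 12.61 against 12.05, 11.79, 12.16 and 11.22 (0.91 ± 0.24, limma adjusted p = 0.041).

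Each list count in this paragraph stands beside 4.32% lower and 7.74% higher over all tested genes. The fatty acid oxidation and peroxisome list was spread around 0, with 3 of 34 genes lower and 1 higher (median -0.0036), or 5 lower and 2 higher without nephritic array 3. The genes that fell were the peroxisomal enzymes Hao2 and Cat and the mitochondrial electron carrier enzyme Etfdh (-0.78, limma adjusted p = 0.031). Hao2, a peroxisomal oxidase of hydroxy acids, was 10.17, 9.47 and 8.64 against 11.13, 11.09, 10.85 and 11.11 (-1.62 ± 0.30, limma adjusted p = 0.016), and Cat, which encodes catalase, was 9.52, 9.03 and 8.42 against 10.19, 10.17, 10.20 and 10.47 (-1.27 ± 0.23, limma adjusted p = 0.015). Both were lowest on nephritic array 3, and without it differed by -1.22 and -0.98 and still passed. Hao2 did not pass without nephritic array 2, young array 2 or young array 4. Cat did not pass without nephritic array 2 or young array 4. Pex11a, a peroxisome division factor, rose by 0.64. Of 32 detected genes of the respiratory chain and ATP synthase, 2 were lower, Atp5o (-0.58) and Sdhb (-0.66, and limma adjusted p = 0.058 without nephritic array 3), and none was higher. The median of these 32 was -0.267 with all arrays and -0.137 without nephritic array 3, whose mean level for the list was -0.559, against 0.0838 and -0.123 on the other nephritic arrays and 0.132 to 0.17 on young arrays. In the TCA cycle Ogdh rose (0.54) and Mdh1 fell (-1.30), and the call of Mdh1 was lost without nephritic array 3 (-0.87, limma adjusted p = 0.062) and when any other array but nephritic array 1 was left out. Sterol synthesis genes were lower for 3 of 16 detected members and higher for none, among them Cyp51 (10.01, 8.84 and 9.94 against 10.82, 10.70, 10.82 and 10.75, difference -1.18). Nsdhl, another sterol enzyme outside the list, differed by -1.48. Of the glycolysis and glucose list 2 of 28 were higher and 4 lower. The higher genes were the transporter Slc2a6 (at least 2.81-fold) and the hexokinase Hk3 (at least 1.54-fold), both of which are known from leukocytes and were not well above background on any young array.

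Sex-dependent enzymes moved in both directions. Cyp2d9 and Cyp7b1, both known to be higher in male than female mouse tissues, were higher in nephritic kidneys. Cyp2d9 was 7.57, 7.79 and 7.83 against 6.51, 6.57, 6.33 and 6.56 (1.24 ± 0.12, limma adjusted p = 0.005), and Cyp7b1 was 6.99, 7.08 and 6.91 against 6.17, 6.17, 6.14 and 5.74 (0.94 ± 0.14). Slc7a12, an amino acid transporter known to be higher in female kidneys, was lower at 7.37, 7.22 and 5.91 against 8.71, 8.21, 8.35 and 8.66 (-1.65 ± 0.33, limma adjusted p = 0.02). Over the list of 13 detected sex-dependent genes 2 were higher and 2 lower (median 0.0219), beside 7.74% higher and 4.32% lower over all tested genes. Serpina6, which encodes the corticosteroid carrier of plasma, was 6.29, 5.29 and 7.54 against 7.82, 8.39, 7.97 and 8.28, with the nephritic arrays spread widely but all below the young ones (-1.74 ± 0.44, limma adjusted p = 0.04). Without nephritic array 3 its difference was -2.32 (limma adjusted p = 0.0052), and it did not pass when any other array was left out. Myo5a, an actin motor that carries vesicles, had the second decrease in size, at 6.80, 5.43 and 6.41 against 8.23, 7.84, 7.97 and 7.93 (-1.78 ± 0.29, limma adjusted p = 0.011). Of the 15 largest decreases Plpbp, Adhfe1, Ppp1cb, Pcolce2 and Radx, which belong to none of the lists, differed by -1.68, -1.58, -1.58, -1.52 and -1.41. Among the 15, Serpina6, Slc7a12, Hao2, Adhfe1 and Ppp1cb each missed the threshold in at least 1 fit that left out an array. The others of the 15 stayed past it in every such fit.

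In the more distal nephron 1 of 28 detected genes was higher and 2 were lower (3 and 3 without nephritic array 3), beside 7.74% higher and 4.32% lower over all tested genes, so the list as a whole does not stand out by these counts. Scnn1b, a subunit of the epithelial sodium channel, was 9.90, 10.10 and 9.63 against 9.26, 9.04, 9.19 and 8.97 (0.77 ± 0.14, limma adjusted p = 0.015). Egf, the epidermal growth factor precursor of the distal tubule, was 11.68, 10.98 and 11.12 against 12.22, 12.18, 12.15 and 12.06 (-0.89 ± 0.17, limma adjusted p = 0.016). Slc12a1, the sodium-potassium-chloride cotransporter that loop diuretics block, was 12.23, 12.12 and 12.41 against 12.79, 12.91, 12.88 and 12.61 (-0.55 ± 0.12, limma adjusted p = 0.028). Of 21 detected vasoactive and blood pressure genes 4 were lower and 1 higher (median -0.218). Agtr1a, the main angiotensin II receptor, was 8.90, 8.56 and 8.87 against 9.76, 9.52, 9.44 and 9.75 (-0.84 ± 0.14, limma adjusted p = 0.011). Ace, the angiotensin-converting enzyme, was detected on 1 of the nephritic arrays and on all young arrays (-1.04 ± 0.14). Kl, the klotho co-receptor for the phosphate hormone FGF23, differed by -0.66, and Hpgd, which degrades prostaglandins, by -1.46. Cygb, a globin of fibroblasts and pericytes, was 8.03, 9.25 and 8.26 against 7.09, 7.22, 7.16 and 6.99 (1.40 ± 0.26, limma adjusted p = 0.016). Among the markers of resident glomerular and vessel cells, 1 of 9 podocyte genes was higher and 2 were lower (median -0.0718), and of 14 endothelial genes none was higher and 1 was lower (median -0.0988), beside 12.1% called in either direction over all tested genes. The called members of the podocyte list were Cdkn1c, a cell cycle inhibitor (0.55, and limma adjusted p = 0.051 without nephritic array 3), Tcf21, a transcription factor of podocytes and stroma (-0.71), and Mme, the protease neprilysin (-0.85). In whole kidneys the cell type behind such a difference is not resolved. With each of the 7 arrays left out in turn, Cdkn1c passed in 1 fit, Mme in 2 and Tcf21 in 5. The endothelial member was Ehd3, an endocytosis protein of glomerular endothelium (-0.54).

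Of 23 core clock genes 18 were detected and tested. Dbp and Csnk1d were higher, Arntl was lower and 15 did not pass (median -0.17), beside 7.74% higher and 4.32% lower over all tested genes. Without nephritic array 3 none of the 18 was higher and 2 were lower, and the median was then 0.0689, so its sign turned. Arntl, which encodes the activator Bmal1, was 6.40, 6.46 and 5.61 in nephritic kidneys and 7.27, 7.47, 7.16 and 7.27 in young kidneys. The groups did not overlap, and the difference was -1.13 ± 0.21, a 2.19-fold decrease (limma adjusted p = 0.015). Nephritic array 3 was the lowest, and without it the difference was -0.86 (limma adjusted p = 0.008). Without young array 2 or young array 4 the decrease of Arntl did not pass. Dbp, a transcription factor that Arntl and Clock drive, was 8.37, 8.34 and 8.38 against 7.94, 7.96, 8.0 and 7.71 (0.46 ± 0.11, limma adjusted p = 0.032). Csnk1d, a kinase that marks Per proteins for degradation, was 8.02, 8.39 and 8.22 against 7.76, 7.73, 7.78 and 7.51 (0.52 ± 0.13, limma adjusted p = 0.036), though another of its probes passed in the opposite direction. Neither Dbp nor Csnk1d passed without nephritic array 3 (limma adjusted p = 0.051 and 0.054), or when any other array but nephritic array 1 was left out. Npas2, a partner of Arntl in place of Clock, was 4.72, 5.05 and 5.74 against 5.35, 5.56, 5.69 and 5.56 and did not pass (-0.37, limma adjusted p = 0.28), but was lower without nephritic array 3 (-0.65, limma adjusted p = 0.027).

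Clock genes of the negative limb varied as much among young kidneys as between the groups. Per2 was 8.96, 8.56 and 8.83 in nephritic kidneys and 8.60, 7.80, 8.12 and 7.25 in young kidneys (0.84 ± 0.28, limma adjusted p = 0.085). Per1 was 8.51, 8.79 and 7.44 against 7.48, 8.07, 8.17 and 6.21 (limma adjusted p = 0.32). Nr1d1, the repressor Rev-erb alpha, was 5.44, 5.73 and 5.57 against 5.43, 6.32, 5.69 and 7.42 (limma adjusted p = 0.32). Young array 4 was lowest of the 4 for Per1, Per2, Cry2 and Dbp and highest for Nr1d1, so 1 kidney of the young group differed from the others in these genes. Nfil3, a repressor that opposes Dbp, was lower on all nephritic arrays than on any young array without passing (-0.44 ± 0.15, limma adjusted p = 0.089), and Clock itself differed by -0.14 (limma adjusted p = 0.46). Nr1d2 and Bhlhe40 were low on nephritic array 3, at 4.81 and 8.47, and differed by -0.44 and -0.20 with it and by 0.17 and 0.30 without it.

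**Figure D4:**
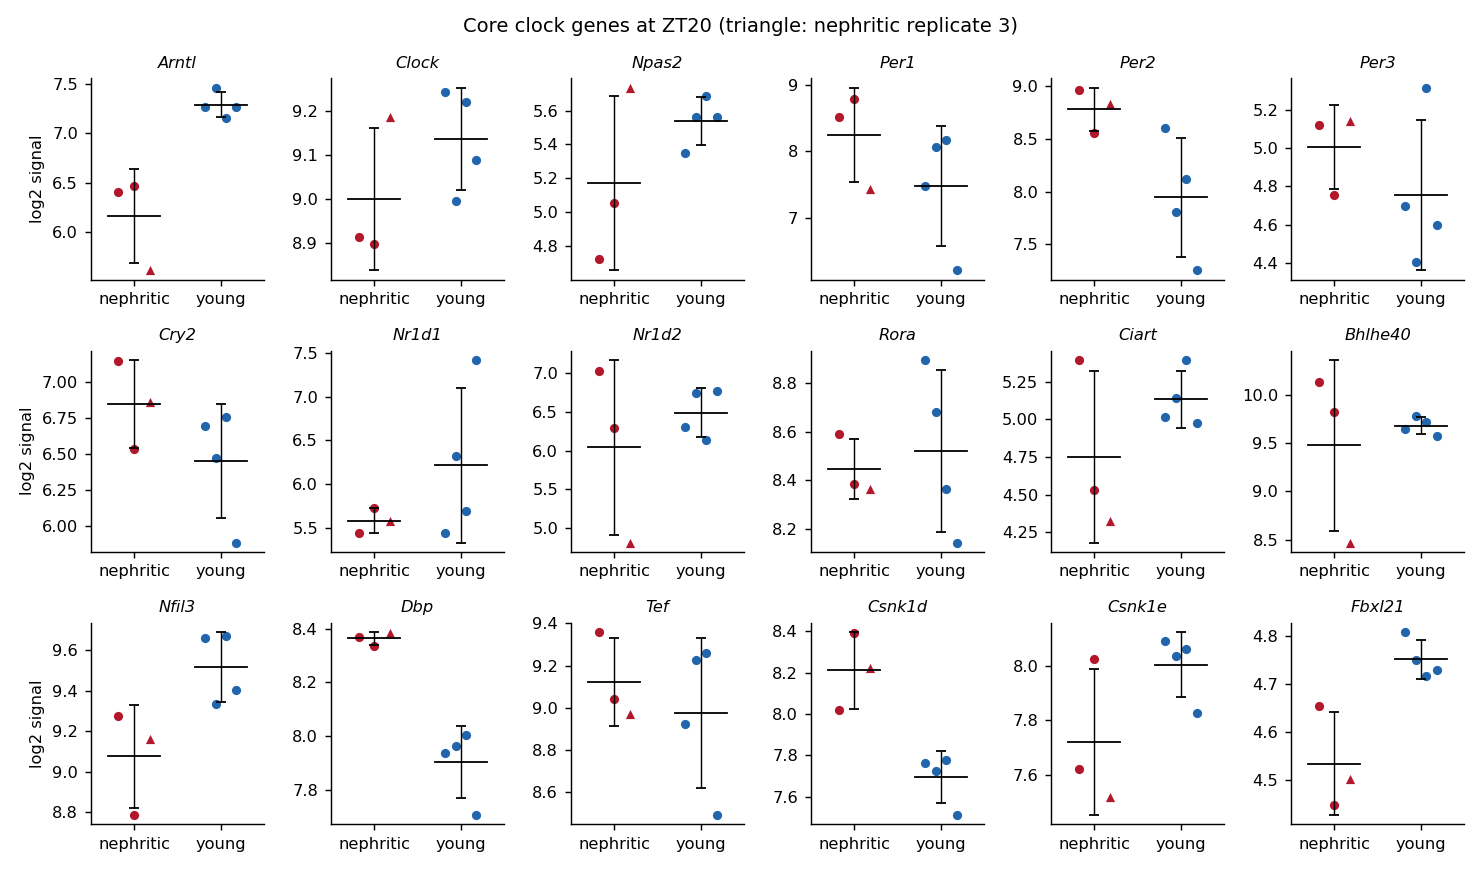
Log2 signal of the 18 detected core clock genes on 3 nephritic (left) and 4 young (right) arrays at ZT20, with group means and SD as bars, nephritic array 3 as a triangle and an own vertical scale in each panel. Arntl lies below young on every nephritic array and Dbp and Csnk1d lie above, while Per1, Cry2 and Nr1d1 overlap and young array 4 stands apart.

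The promoter of Arntl is shown because this gene carried the largest clock difference and Nr1d and Ror proteins act on it through the element called RORE. The letters TAGGTCA, searched on both strands, occurred in 1 place in this window (capitals) and in 2.45% of the 7795 tested genes with a promoter. They occurred in 3.64% of the 330 genes called lower and in 2.53% of the 592 called higher. Among the 15 tested clock genes with a promoter only Arntl and Nfil3 held them. Both had lower values in nephritic kidneys, of which that of Nfil3 did not pass, and a link to these letters was not tested.
Arntl, chr7:113207261-113207560, plus strand: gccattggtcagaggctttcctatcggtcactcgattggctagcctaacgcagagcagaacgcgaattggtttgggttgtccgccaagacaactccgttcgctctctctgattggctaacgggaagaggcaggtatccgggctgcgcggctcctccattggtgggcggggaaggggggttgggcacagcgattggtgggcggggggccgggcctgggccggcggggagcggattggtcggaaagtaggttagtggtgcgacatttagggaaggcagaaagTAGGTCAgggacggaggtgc

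The difference at ZT20 was then set against the mean of the same difference at the other 5 times, in a limma fit of 12 group means to all 48 arrays. No gene passed (0 of 9602, smallest limma adjusted p = 0.504), while 795 genes (8.28%) had an unadjusted p under 0.05. Fcgr4 differed by 3.68 at ZT20 and by 4.31, 4.45, 4.07, 4.27 and 3.60 at ZT0, ZT4, ZT8, ZT12 and ZT16 in that fit. Slc17a3 differed by -1.97 at ZT20 and by -2.93, -3.72, -1.73, -1.54 and -2.36 at those times. Arntl differed by -1.13 at ZT20 and by -1.84, -1.41, 0.01, 0.98 and -1.14 at those times, and its ZT20 value was not separated from their mean (-0.45 ± 0.24, limma adjusted p = 0.6). The genes with the smallest p were Htatsf1, Pomgnt2, Cnot11, Lsm14b and Tdg above the other times (differences of 0.40 to 1.12) and Grk5, Cpne8, Naif1, Plac9a and S100pbp below them (-0.56 to -0.79). The other times hold 7 of the 8 nephritic arrays of the series with low Pabpc1 (5.94 to 6.69, against 8.20 to 9.51 on the other 14 nephritic arrays). Without nephritic array 3 of ZT20 alone, 64 genes passed, 60 above and 4 below, led by Glrx3, Rpf2 and Bcas2. Without all 8 such arrays, which leaves ZT8, ZT12 and ZT16 to compare with, 0 passed, and 711 had an unadjusted p under 0.05.

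Nephritic array 3 was lower by at least 2-fold than the mean of the other nephritic arrays for 437 genes (4.55%) and higher for 120 genes (1.25%). Of the 437 genes 6 were called lower and none was called higher, so 431 of them are not part of the calls. The lowest were Ndufb9, Selenok, Aldh6a1, Rps3a1 and Vapa, which belong to no single pathway. Ndufb9, a subunit of respiratory complex I, was 9.58, 8.63 and 5.84 in nephritic kidneys and 8.95, 9.28, 8.91 and 9.15 in young kidneys, and Rps3a1, a ribosomal protein, was 8.50, 8.10 and 5.36 against 8.15, 8.29, 7.98 and 8.34. Vapa turned its sign: it was 7.53, 7.34 and 4.55 against 7.03, 6.95, 6.98 and 6.91, a difference of -0.50 that did not pass with all arrays and of 0.47 that did without array 3 (limma adjusted p = 0.037). Among the 120 genes high on array 3, of which 19 were called higher and 1 was called lower, were genes of hepatocytes and of red cells. Arg1, an enzyme of the urea cycle in liver, was 4.92, 5.26 and 8.02 against 5.45, 5.55, 4.93 and 4.89, and Mat1a, which makes S-adenosylmethionine in liver, was 6.15, 6.88 and 9.47 against 6.81, 6.73, 5.88 and 6.12. Hba-a1, which encodes alpha globin, was 7.57, 7.70 and 10.99 against 8.96, 8.87, 8.27 and 6.60.

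In a list of 20 hepatocyte genes written after these values were seen (Cps1, Cyp8b1, Cyp7a1, F2, Plg, Ahsg and others), every gene was highest on nephritic array 3, by 1.37 to 2.95 over the other nephritic arrays, and none passed. Their rank on that array follows from how the list was chosen. The mean level of the list was -0.316, -0.00887 and 2.03 on the nephritic arrays and -0.758 to -0.195 on the young arrays. Without array 3, 4 of the 20 were higher, and the median of the list was 0.182, against 0.911 with it. In the separate list of pancreas and liver markers 6 of 13 were detected, without Alb and Fgb, and none passed. The mean level of those 6 was -0.505 to -0.0615 on the young arrays, -0.0785 and 0.0855 on nephritic arrays 1 and 2, and 1.07 on nephritic array 3. Genes of plasma proteins that the liver makes were also high on that array. Hpx, the heme carrier hemopexin, was 7.89, 8.13 and 10.83 against 7.27, 7.02, 5.89 and 6.43 and did not pass (limma adjusted p = 0.059). Itih4, an acute phase protein, was 7.13, 7.09 and 9.57 against 5.61, 6.05, 5.31 and 6.30 and passed with array 3 (2.11, limma adjusted p = 0.047) and without it (1.29, limma adjusted p = 0.018). Serpina3n, also an acute phase protein and among the 15 largest increases, was 6.26, 7.13 and 8.25 against 5.29, 5.02, 4.66 and 4.93, and without array 3 its difference was 1.72 (limma adjusted p = 0.008). Whether, and how far, liver RNA enters these differences was not tested.

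**Figure D5:**
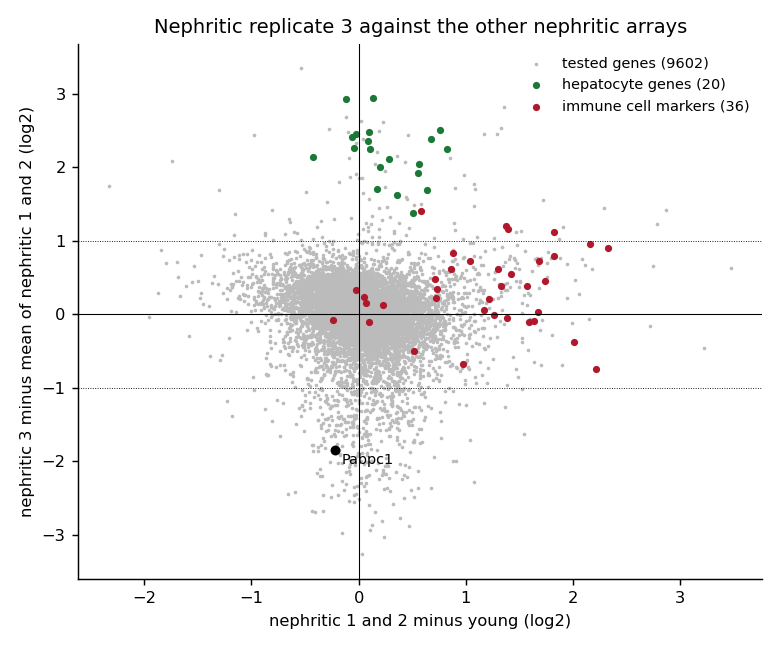
Nephritic array 3 minus the mean of nephritic arrays 1 and 2 (log2, vertical axis) against the mean of nephritic arrays 1 and 2 minus young (log2, horizontal axis), with 1 point per tested gene and dotted lines at 2-fold. The 20 hepatocyte genes (green), chosen after the values were seen, lie above the upper line, Pabpc1 (black) lies below the lower one, and of 36 immune cell markers (red) 4 lie above the upper line and none below the lower one.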

How the data were processed

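Kidney RNA was measured on 1-colour Illumina arrays, of which 3 nephritic and 4 young arrays at ZT20 were compared, with groups taken from the source names. With GenomeStudio the authors gave each probe a signal intensity and a detection p-value (version not given in the sources used here), and the deposited intensity was linear and not normalized (median 104.2 to 107.7 per array). The deposited detection p-value sets a probe against the array's negative controls. The authors' processed intensity table was used only among the alternatives. All 48 arrays together were corrected for background and quantile-normalized by neqc of limma 3.58.1 (offset 16) in R 4.3.3. A single gene symbol was available for 23978 of the 25697 probes, and 23962 matched the gene table by identifier. The 13054 probes detected (p under 0.05) on at least 3 of the 7 arrays gave 9602 genes, each represented by its brightest probe, and another probe passed in the opposite direction for 6 genes. Groups were compared by limma's moderated test, two-sided. On data simulated for this comparison over 9602 genes, the test recovered 73 of 100 genes changed by 1 and 99 of 100 changed by 2 on the log2 scale, with 5 false calls. The methods of the study name a rank test for 2 groups, which cannot pass with 3 against 4 arrays. A gene not detected on any array of a group was given a bound ("at least"), from the lowest detected signal.

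Genes named in the text were the 15 largest calls in each direction, all core clock genes, up to 4 calls per direction in each gene list, the leading genes of the contrast with other times and of nephritic array 3, and genes detected in 1 group only, and others named were chosen after their values were seen. The members and lists were chosen with earlier results of these data known, so no list is independent evidence. Replicates are arrays of different mice, numbered in the order listed, and the number of arrays limits the precision. The highest correlation between 2 of the 7 arrays was 0.9951, and 0 were identical. Alternatives were other background, scaling, filter and variance settings and leaving out each array.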

Additional observations from a re-analysis of the deposited data

Results flagged for a closer look

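Among the values of 74 genes looked at for a single array far from its group of 4, 2 stood out, and chance alone gives about 1 in 20 groups. Fpr2 was 5.53 on young array 4, while the other young arrays lay between 4.48 and 4.65. Hao2 was 10.85 on young array 3, while the other young arrays lay between 11.09 and 11.13. In both genes the value lay on the side of the nephritic arrays and did not reach them. Groups of 3 arrays were not examined in this way.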

How the results depend on the processing

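The alternatives refit genes already called on the same arrays, so a kept direction is little evidence. In the fit of 12 group means over 48 arrays the difference itself is unchanged by construction. Of 135 named genes that passed, all kept their direction under every alternative in which they were tested (112 of them with detection required on all 7 arrays). Fewer stayed past the threshold, namely 101 with the median scaling and filter of the study's methods, 93 with the title code block, 84 in a fit of 12 group means over 48 arrays, 71 in that fit without the 8 arrays of low Pabpc1, and 112 to 135 under the other settings, and 64 stayed past the threshold whichever of the 7 arrays was left out. The number of genes higher in nephritic kidneys was 743 and stayed within 536 to 970 under 10 other settings of background, scaling, filter and spread, except 388 with the title code of the samples as a random block and 449 (chosen after seeing the data) in a fit of 12 group means without the 8 arrays of low Pabpc1. The number lower was 415 and became 158 with the median scaling and filter of the study's methods, 168 with the title code block and 803 when every probe was tested. All young arrays shared the same title code, nephritic arrays 1 and 3 shared another, and nephritic array 2 had a code of its own. Title code and group therefore cannot be told apart, and the labels do not give the meaning of the code. Leaving out 1 array gave 244 to 1411 higher genes and 82 to 816 lower genes. The highest counts were without nephritic array 1, and the counts were 286 and 123 without nephritic array 2, 689 and 474 without nephritic array 3, and 244 to 310 and 82 to 131 without a young array. Leaving out an array also lowers the number of arrays, and the cause was not tested further. For the difference at ZT20 against other times, the count was 0 and ranged from 0 to 64 when an array was left out, 64 without nephritic array 3. Vapa reversed without nephritic replicate 3 (0.47, against -0.50 with all arrays), and leaving out 1 array gave -1.02 to 0.47. No paired analysis was possible because the replicate numbers were given in accession order. Values near background limit genes that few arrays detected.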

Other observations

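Genes outside the lists, chosen after their values were seen and so given without a test of any group, also stood among the larger differences. Several genes of the replication-type histone H2A cluster were higher: H2ac24 was 9.29, 10.83 and 10.43 in nephritic kidneys and 8.44, 8.26, 8.42 and 8.37 in young kidneys, and H2ac10 was 7.74, 8.87 and 8.02 against 6.59, 6.34, 6.54 and 6.52. These genes are nearly identical in sequence, so their probes cannot be told apart in what they measure. H4c8, a histone H4 gene, went the other way at 7.86, 7.74 and 7.83 against 8.82, 9.05, 8.93 and 8.99. In a list of 22 histone genes written after the values were seen, 13 were detected, of which 6 were called higher and 1 lower. These counts are no independent evidence, and among all tested genes 7.74% were higher and 4.32% lower.

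Of the chains of fibrinogen, the clotting protein, Fgb was not detected on enough arrays to be tested, and Fga and Fgg were higher. Fga was 9.92, 11.10 and 10.85 in nephritic kidneys against 9.10, 9.29, 9.0 and 9.12 in young kidneys, and Fgg was 9.39, 10.48 and 9.87 against 8.10, 8.55, 8.38 and 8.32. These 2 were highest on nephritic array 2, whereas 9 of the 15 detected genes of a list of acute phase and clotting genes, written after the values were seen, were highest on nephritic array 3. The mean level of that list was 0.247, 0.792 and 1.68 on the nephritic arrays and -0.986 to -0.537 on the young arrays, and 11 of the 15 were called higher with array 3 and 12 without it. Among all tested genes 7.74% were higher with array 3 and 7.18% without it, and a list chosen in this way is no independent evidence. Basal keratins rose as well: Krt17 was 5.70, 5.79 and 6.12 in nephritic kidneys and not well above background in young kidneys (at least 2.37-fold), and Krt14 was 6.29, 6.42 and 7.38 against 5.27, 5.32, 5.41 and 5.51. Glycam1, a ligand for the lymphocyte homing receptor L-selectin made by high endothelial venules, was at least 1.99-fold higher, at 5.35, 6.21 and 5.30 in nephritic kidneys.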
